A study of Gallus gallus with 18 samples.

Results

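The kinesin genes of the developing chick trigeminal ganglion were taken as every row of the deposited gene table whose symbol begins with KIF or KIFC and a number. This gave 37 of 30108 rows. Of these, 36 encode kinesin motors of 12 families, and 1, KIF1BP, encodes a protein that binds and inhibits kinesins but is not a motor. A further 15860 rows carried no symbol, and kinesins among them were not analysed here.

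Kinesins are motor proteins that walk along microtubules, or take them apart, using ATP. One branch of the family works in dividing cells, where its members separate spindle poles, align chromosomes and cut the cell apart. Another branch carries vesicles, mitochondria and cytoskeletal proteins along axons, and is in heavy use in sensory neurons, whose axons are very long for the size of the cell. A further branch serves the cilium. The trigeminal ganglion forms from cycling neural crest and from placode cells, many of which leave the cycle early, so cells that use either branch can be present at once.

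The samples were pooled trigeminal ganglia of wild-type chick (Gallus gallus) embryos at Hamburger-Hamilton (HH) stages 13-14, 15-16 and 17-18, with no treatment named. Each stage had 3 biological replicates, called pools here, and each pool was sequenced as 2 technical replicates on lanes 7 and 8, which were summed. The number of ganglia in a pool is not given in the sources used here, and a pool mixes all cell types of the dissected tissue, so fewer cells of a type and less RNA per cell cannot be told apart. The 9 pools held 53458986 to 68083147 counts. Values are CPM, counts scaled to the same library size in every pool. They are not divided by transcript length, so a gene's level is compared with that of the same gene in other pools. Sums over several genes, and the share of a gene in such a sum, also depend on transcript length. Gene positions are those of RefSeq on the build GRCg7b.

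Marker lists showed what else the pools held. The 13 neuron markers in the table, which include ISL1, SNAP25 and the neurotrophin receptors, had counts in every pool, and their summed level was 1078 to 1114 CPM at HH13-14, 867 to 1171 at HH15-16 and 1058 to 1627 at HH17-18. TUBB3 alone made up 78.4% of that sum over the 9 pools, and the other 12 markers summed to 187 to 242, 167 to 247 and 241 to 444 CPM at these stages. The 7 neural tube markers summed to 122 to 166, 88.9 to 263 and 48.1 to 121 CPM at the same stages, with the highest sum in replicate 1 of HH15-16 and the lowest in replicate 2 of HH17-18. The 7 head mesenchyme markers summed to 1987 to 2147, 1317 to 2671 and 2090 to 3331 CPM, and those 2 pools were again the extremes, in the opposite order. COL1A1 and COL1A2 made up 86.7% of the mesenchyme sum, and without them the same pools were the lowest, at 177 CPM, and the highest, at 416 CPM. The 6 macrophage markers summed to 5.72 to 9.48, 8.15 to 29.5 and 23.5 to 66.9 CPM, and the 6 red blood cell markers to 283 to 400, 261 to 580 and 503 to 719 CPM. Neural crest and glia markers (9 genes) summed to 584 to 712, 471 to 680 and 429 to 599 CPM. Endothelium, skeletal muscle and surface ectoderm markers had overlapping sums at all 3 stages. Between HH17-18 and HH13-14, edgeR called 4 of 13 neuron markers and 3 of 6 macrophage markers higher, 1 of 7 head mesenchyme markers lower, and 1 of 5 red blood cell markers higher. Over all genes, 2.4% were called higher and 2.12% lower. Of 6 surface ectoderm markers tested, 2 were higher and 1 lower, and of 9 neural crest and glia markers 1 was lower. No neural tube, endothelium or muscle marker was called by edgeR. DESeq2 called 1 neural tube marker, PAX6, 1 endothelium marker, KDR, and 2 head mesenchyme markers lower. It called 7 neuron, 5 macrophage and 4 red blood cell markers higher. Of surface ectoderm markers it called 2 higher and 2 lower, and of neural crest and glia markers 1 higher and 3 lower. These DESeq2 calls were not set against its share over all genes. No marker in the table was at 0 in every pool, while HBE1, MYOG and KRT5 were at 0 in at least 1. The part of these lists in the kinesin results was not tested.

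Of the 37 rows, 36 passed the filter on low counts. KIF2B, a microtubule depolymerase, had 0 counts in all 9 pools, where 3 counts, the limit that a count of 0 allows, correspond to 0.0434 to 0.0561 CPM. Between HH17-18 and HH13-14, 2 of the 36 kinesins tested were past an edgeR adjusted p of 0.05, or 5.56%, against 4.51% of all genes tested. One, KIF6, rose and the other, KIF26B, fell, where 2.4% of all genes rose and 2.12% fell. KIF6 passed the filter only through its pools of HH17-18, where it was high. At an unadjusted p under 0.05 there were 9 kinesins, or 25.0%, against 21.6% of all genes. Both kinesin shares include KIF6, whose test was not independent of that filter. With that limit, the kinesins as a family were called about as often as other genes. The DESeq2 test added KIF5A to the 2, and limma voom with sample weights added KIF5A and KIFC3. These additions were not set against the share of all genes that each test called.

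The differences between these stages were small for most kinesins. The absolute log2 fold change between HH17-18 and HH13-14 had a median of 0.10 over the 36 kinesins and 0.21 over all genes tested. It was under 0.2 for 25 kinesins, or 69.4%, against 48.8% of all genes. The estimates also differed in precision, with a median half-width of their intervals of 0.26 for the kinesins and 0.41 for all genes. Kinesins were not compared with genes of similar precision, so whether they changed less than such genes was not tested. The median signed log2 fold change was 0.04 for the kinesins and 0.02 for all genes. All 3 pools of HH17-18 lay above all 3 of HH13-14 for 6 kinesins, where 16.0% of all genes did so, and below them for 4, where 15.4% did so. Between the pools of a stage the kinesins had a median coefficient of variation of 5.59% at HH13-14, 12.8% at HH15-16 and 10.9% at HH17-18, against 9.64%, 16.1% and 13.7% for all genes tested.

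**Figure D1:**
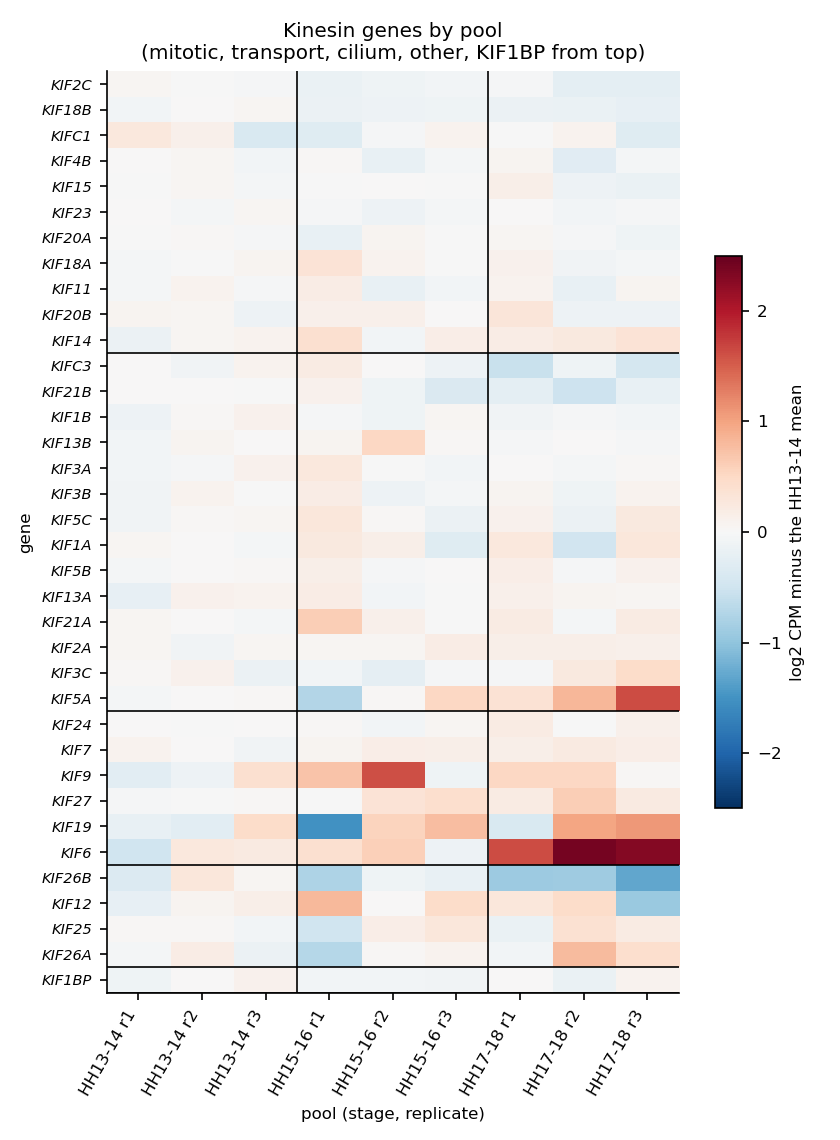
Log2 CPM of the 36 kinesin genes tested in each of the 9 pools (columns, r1 to r3 are replicates 1 to 3), as a difference from the gene's mean at HH13-14, with genes in rows by role. The mitotic block at the top is pale throughout, and the strongest colours belong to KIF6, KIF5A and KIF9 above 0 and to KIF26B and KIF19 below it, with no value beyond 2.4.

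The mitotic kinesins showed no change that passed the test. KIF11 (ENSGALG00010021378, chromosome 6 at 21517954 to 21544232) builds the bipolar spindle by pushing antiparallel microtubules apart. It had 259, 286 and 263 CPM at HH13-14, 308, 236 and 257 CPM at HH15-16 and 285, 238 and 283 CPM at HH17-18. The stages overlapped, and the means were 269 ± 26.7 CPM at HH17-18 and 270 ± 14.7 CPM at HH13-14 (SD, n = 3 each). The log2 fold change between these stages was -0.01 (SE 0.11, 95% interval -0.24 to 0.23, edgeR adjusted p = 0.98).

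KIF15 (ENSGALG00010020101, chromosome 2 at 43098620 to 43134684), which helps KIF11 keep the poles apart, had 210, 218 and 204 CPM at HH13-14, 209, 211 and 209 CPM at HH15-16 and 233, 192 and 189 CPM at HH17-18. Replicate 1 of HH17-18 was the highest of the 9 pools, and the other two pools of that stage were the lowest. The log2 fold change was -0.04 (95% interval -0.22 to 0.14, edgeR adjusted p = 0.82). KIF18A (ENSGALG00010022363, chromosome 5 at 4062829 to 4105911), which damps the movements of chromosomes at the spindle equator, had 58.4, 60.4 and 63.8 CPM at HH13-14, 77.4, 64.4 and 60.6 CPM at HH15-16 and 65.7, 57.1 and 58.9 CPM at HH17-18. Its highest pool was replicate 1 of HH15-16, and HH17-18 overlapped HH13-14, with a log2 fold change of -0.01 (95% interval -0.24 to 0.22, edgeR adjusted p = 0.974).

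KIF20A (ENSGALG00010012186, chromosome 13 at 9667926 to 9677798) and KIF23 (ENSGALG00010016498, chromosome 10 at 19362532 to 19380231) act at the midzone of the spindle, where the cell is divided. KIF20A had 191, 196 and 187 CPM at HH13-14, 167, 200 and 191 CPM at HH15-16 and 199, 188 and 179 CPM at HH17-18. KIF23 had 187, 179 and 194 CPM at HH13-14, 183, 171 and 181 CPM at HH15-16 and 189, 178 and 182 CPM at HH17-18. For both genes the 3 stages overlapped. The log2 fold changes between HH17-18 and HH13-14 were -0.02 (95% interval -0.19 to 0.15) for KIF20A and -0.03 (95% interval -0.17 to 0.11) for KIF23, with edgeR adjusted p-values of 0.898 and 0.816.

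The 5 mitotic kinesins above thus had log2 fold changes of -0.04 to -0.01, and the outer bounds of their intervals were -0.24 and 0.23. Among all 11 mitotic kinesins, 0 were past the threshold by edgeR, DESeq2 or limma voom, where edgeR called 4.51% of all genes. At an edgeR unadjusted p under 0.05 there were 2, or 18.2%, against 21.6% of all genes. The log2 fold changes of the 6 not yet described ran from -0.17 to 0.26. KIF18B, a motor that shortens astral microtubules, had 64.2, 63.0 and 61.8 CPM at HH17-18, against 67.7, 71.9 and 73.6 CPM at HH13-14. The stages did not overlap, but the log2 fold change was only -0.17 (SE 0.07, edgeR adjusted p = 0.177). KIF2C, which takes apart faulty attachments of microtubules to chromosomes, had an equal log2 fold change of -0.17 (edgeR adjusted p = 0.23). KIF14, which acts in cytokinesis, had the largest positive one of the 11 mitotic kinesins, 0.26 (95% interval -0.03 to 0.55, edgeR adjusted p = 0.293). For KIF4B, KIFC1 and KIF20B the log2 fold changes were -0.08, -0.09 and 0.03. KIF4B is the table's symbol for the single chicken gene that RefSeq also calls KIF4 and KIF4A.

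The partners of these motors on the spindle also gave no call. Of 28 spindle and cytokinesis genes written in the list, 24 were in the table and were tested. Between HH17-18 and HH13-14, 0 were past the threshold by edgeR, where 4.51% of all genes were, and 0 by DESeq2. At an unadjusted p under 0.05 there were 3, or 12.5%, against 21.6% of all genes. The median log2 fold change of the 24 genes was -0.02 and the range was -0.23 to 0.21. The extremes were CDK1, the kinase that drives entry into mitosis, at -0.23 (edgeR adjusted p = 0.121), and CENPF, a kinetochore protein, at 0.21 (edgeR adjusted p = 0.192). BIRC5, the survivin subunit of the chromosomal passenger complex, was at -0.18 (edgeR adjusted p = 0.263). CENPE, a kinesin of the kinetochore whose symbol is outside the naming rule, had 196, 178 and 170 CPM at HH17-18, against 162, 165 and 169 CPM at HH13-14, a log2 fold change of 0.14 (95% interval -0.03 to 0.30, edgeR adjusted p = 0.323).

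**Figure D2:**
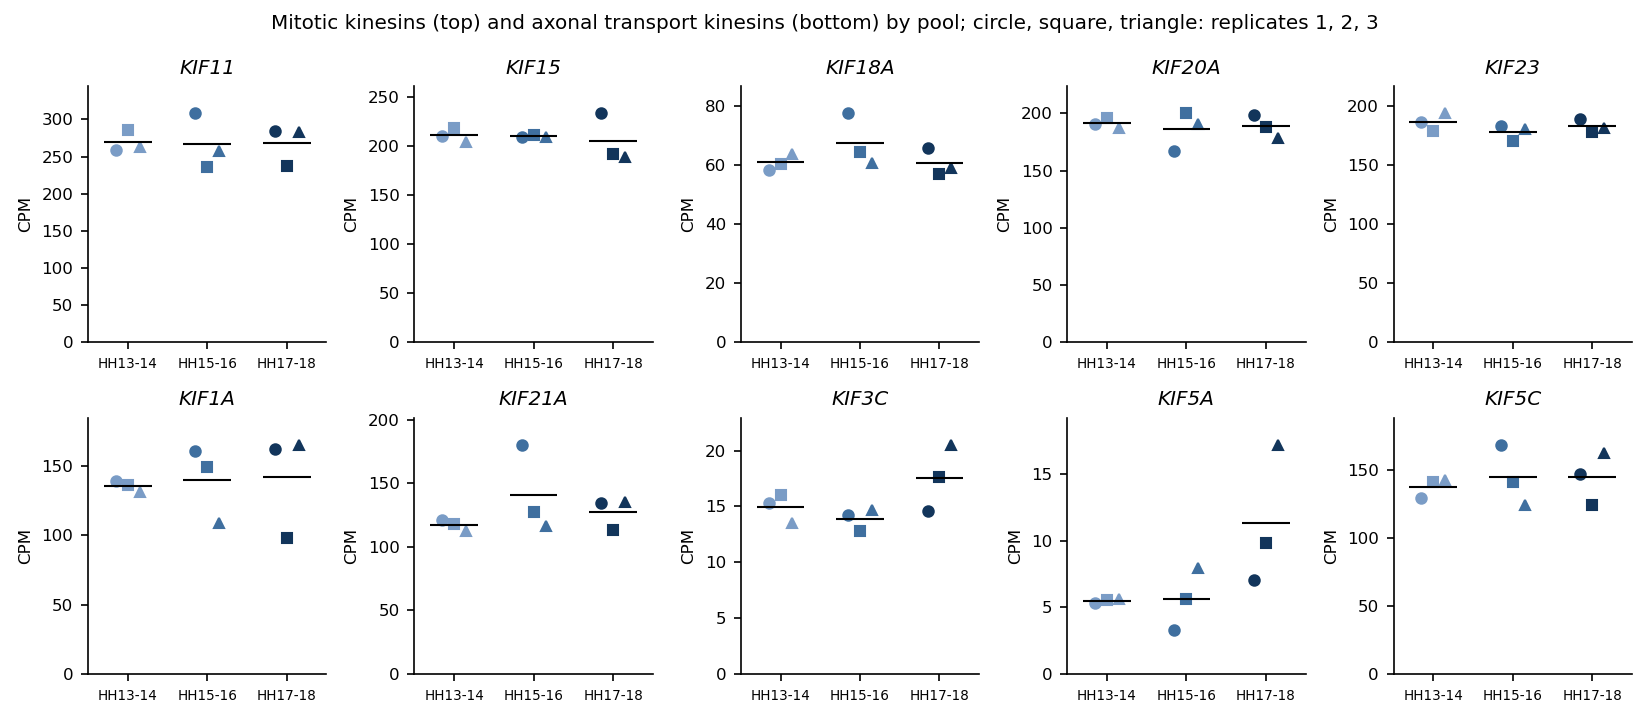
CPM of the 5 mitotic kinesins (top row) and the 5 axonal transport kinesins (bottom row) in the 3 pools of each stage, with a line at the stage mean and each axis starting at 0. HH17-18 overlaps HH13-14 for all genes except KIF5A, whose 3 pools at HH17-18, from 7.06 to 17.2 CPM, lie above the 3 at HH13-14, from 5.34 to 5.63 CPM.

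The 5 axonal transport kinesins had positive log2 fold changes of 0.07 to 1.04. By edgeR 0 of them passed the test, where 4.51% of all genes did. The highest estimate was that of KIF5A (ENSGALG00010023736), one of the heavy chains of kinesin-1 and the one most restricted to neurons in mammals. It had 5.34, 5.55 and 5.63 CPM at HH13-14, 3.32, 5.62 and 7.93 CPM at HH15-16 and 7.06, 9.82 and 17.2 CPM at HH17-18. The pools of HH17-18 were above those of HH13-14 without overlap, but they differed among themselves 2.44-fold, and the pools of HH15-16 2.39-fold. The means were 11.4 ± 5.24 CPM at HH17-18 and 5.51 ± 0.151 CPM at HH13-14 (SD, n = 3 each). The log2 fold change was 1.04 (SE 0.35, 95% interval 0.27 to 1.82), with an unadjusted p of 0.0131 and an edgeR adjusted p of 0.12, which missed the threshold.

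The call for KIF5A depended on the test. The DESeq2 adjusted p was 0.0267 and that of limma voom with sample weights was 0.0495. Without replicate 3 of HH17-18, the pool with the highest level, the log2 fold change was 0.60 (edgeR adjusted p = 0.347). Replicate 3 of HH17-18 had the highest KIF5A and also the highest sums of neuron markers, 1627 CPM, and of macrophage markers, 66.9 CPM. Replicate 1 of HH15-16 had the lowest KIF5A and the lowest neuron sum, 867 CPM, but not the lowest macrophage sum. The neuron sum was 1058, 1188 and 1627 CPM in the pools of HH17-18, against 1078, 1114 and 1093 CPM at HH13-14. Without TUBB3 it was 241, 258 and 444 CPM at HH17-18, against 187, 200 and 242 CPM at HH13-14. Replicate 1 of HH17-18 was thus below all pools of HH13-14 only in the sum with TUBB3. The macrophage sum was 23.5, 36.6 and 66.9 CPM at HH17-18, against 9.48, 6.47 and 5.72 CPM at HH13-14, and the red blood cell sum 719, 717 and 503 CPM at HH17-18, against 400, 295 and 283 CPM at HH13-14, both without overlap. The part of these cell types in the KIF5A values was not tested.

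The other heavy chains of kinesin-1 did not pass the test. KIF5C (ENSGALG00010009578, chromosome 7 at 34383938 to 34451491), also enriched in neurons, had 129, 141 and 142 CPM at HH13-14, 168, 141 and 124 CPM at HH15-16 and 147, 124 and 162 CPM at HH17-18, with a log2 fold change between HH17-18 and HH13-14 of 0.07 (95% interval -0.20 to 0.34, edgeR adjusted p = 0.785). KIF5B, the heavy chain found in most cell types, had a log2 fold change of 0.08 (95% interval -0.08 to 0.24, edgeR adjusted p = 0.567). KIF5A made up 1.66%, 2.65% and 3.93% of the summed counts of the 3 heavy chains in the pools of HH17-18, against 1.45%, 1.42% and 1.43% at HH13-14. The difference in change between the heavy chains was not tested. How reads shared by these related genes were counted is not given in the sources used here.

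KIF1A (ENSGALG00010024946, chromosome 9 at 4498561 to 4531198), the main carrier of synaptic vesicle precursors, had 139, 136 and 131 CPM at HH13-14, 161, 149 and 109 CPM at HH15-16 and 162, 97.7 and 165 CPM at HH17-18. The pools of HH13-14 lay within 1.06-fold of each other, while those of HH17-18 were spread 1.69-fold and lay on either side of them. For KIF1A this gave a log2 fold change of 0.07 (95% interval -0.35 to 0.49, edgeR adjusted p = 0.874). KIF21A (ENSGALG00010008171, chromosome 1 at 15536756 to 15621134), which holds back microtubule growth in axons, had 121, 118 and 112 CPM at HH13-14, 180, 127 and 116 CPM at HH15-16 and 134, 113 and 135 CPM at HH17-18. Its highest pool by far was replicate 1 of HH15-16, and the log2 fold change between HH17-18 and HH13-14 was 0.12 (95% interval -0.20 to 0.44, edgeR adjusted p = 0.677).

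KIF3C (ENSGALG00010009530, chromosome 3 at 104683983 to 104697806), a kinesin-2 motor found mainly in neurons, had 15.3, 16.0 and 13.5 CPM at HH13-14, 14.2, 12.8 and 14.7 CPM at HH15-16 and 14.6, 17.6 and 20.5 CPM at HH17-18. Replicate 1 of HH17-18 lay within the range of HH13-14, and the other two were above it. For KIF3C this gave a log2 fold change of 0.23 (95% interval -0.09 to 0.55, edgeR adjusted p = 0.391).

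Replicate 1 of HH15-16 and replicate 2 of HH17-18 held extreme values of several of these genes. The first held the highest value of 11 of the 36 kinesins, among them KIF21A, KIF5C, KIF21B, KIF11 and KIF18A, and the lowest of 5. The second held the lowest value of 7, among them KIF1A, KIF5C, KIF21B and KIF18A, and the highest of 5. Replicate 1 of HH13-14 held the lowest value of more kinesins, 9. These counts were not set against those over all genes. Replicate 1 of HH15-16 and replicate 2 of HH17-18 had the highest and lowest sums of neural tube markers, 263 and 48.1 CPM. That sum was 166 CPM in replicate 1 of HH13-14. The pools with the highest and lowest neural tube sums had the lowest and highest sums of head mesenchyme markers, 1317 and 3331 CPM. Over all genes tested, limma voom also gave these pools its lowest sample weights, 0.334 and 0.675. Their extreme values were thus not particular to the kinesins. The part of these tissues in the spread was not tested.

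Set beside each other, the 5 axonal kinesins had a mean log2 fold change of 0.31 and the 5 mitotic ones of -0.02 between HH17-18 and HH13-14, a difference of 0.33. No test is given for these means, since the genes were chosen with results of these data known. In log2 CPM relative to the HH13-14 mean, the axonal mean was 0.18, 0.08 and 0.56 in the pools of HH17-18, and 0.07, 0.02 and 0.01 at HH15-16. The mitotic mean was 0.08, -0.10 and -0.05 at HH17-18, and 0.06, -0.03 and -0.03 at HH15-16. The difference between the sets, axonal minus mitotic, was thus 0.10, 0.18 and 0.62 at HH17-18, and 0.01, 0.06 and 0.03 at HH15-16.

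This difference depended on 1 gene and on 1 pool. Without KIF5A, a choice made after its values were seen, the axonal mean log2 fold change was 0.123 and the difference 0.145. Without replicate 3 of HH17-18 the difference was 0.151. It stayed above 0 in every setting tried, but these settings reuse the same pools and genes. By pool, the difference without KIF5A was 0.05, -0.01 and 0.35 at HH17-18, and 0.21, 0.06 and -0.09 at HH15-16. The mean of all transport minus all mitotic kinesins was -0.04, 0.07 and 0.26 at HH17-18, and 0.09, 0.07 and -0.01 at HH15-16.

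**Figure D3:**
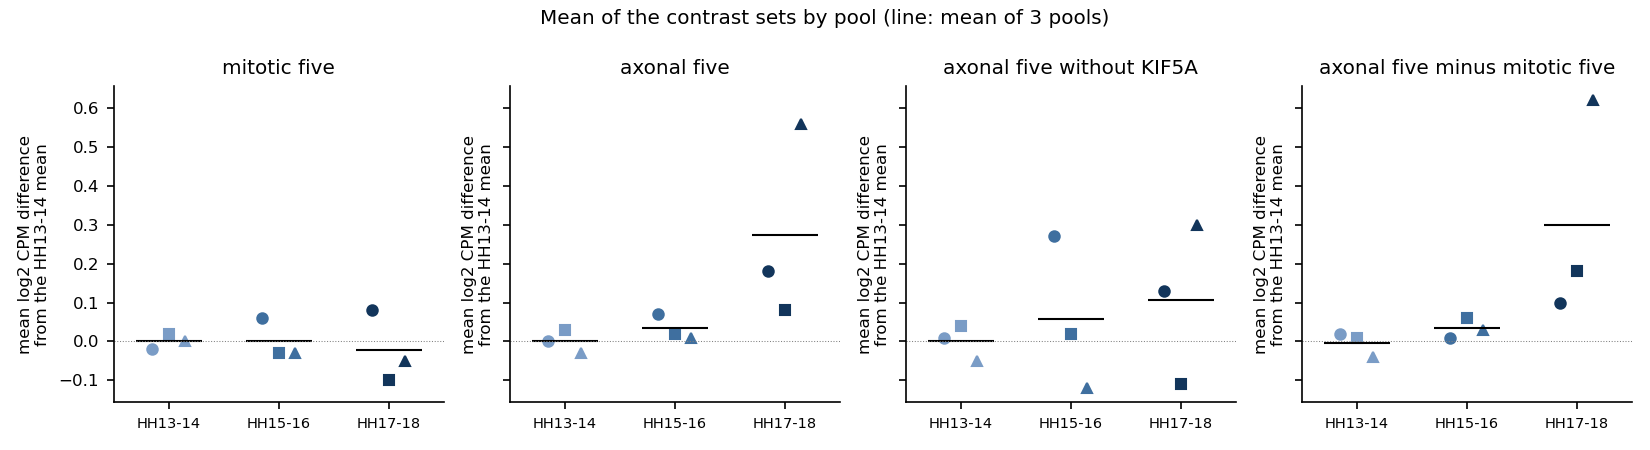
Mean log2 CPM of the 5 mitotic kinesins, the 5 axonal kinesins, the axonal set without KIF5A, and the axonal minus the mitotic mean, each as a difference from its HH13-14 mean, in the 3 pools of each stage with a line at the stage mean. Replicate 3 of HH17-18 (triangle) reaches 0.56 in the axonal set and 0.30 without KIF5A, while the mitotic mean stays between -0.10 and 0.08.

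The other 9 kinesins grouped under transport included the depolymerase KIF2A. They gave 0 calls by edgeR, where 4.51% of all genes were called, and 0 by DESeq2. At an unadjusted p under 0.05 there were 2, or 22.2%, against 21.6% of all genes. The median log2 fold change of the 9 was 0.00 and the range was -0.36 to 0.14. KIF1B, which moves mitochondria and vesicle precursors, was at -0.06 (95% interval -0.23 to 0.10), and the kinesin-2 subunits KIF3A and KIF3B, which also drive transport in the cilium, were at 0.00 and 0.02. KIF13A and KIF13B, which carry endosomal and membrane cargo, were at 0.08 and -0.01. KIF2A, a depolymerase that limits the branching of axons in mouse, had 177, 177 and 175 CPM at HH17-18, against 164, 149 and 165 CPM at HH13-14. These groups did not overlap, and the log2 fold change was 0.14 (SE 0.07, edgeR adjusted p = 0.264).

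KIFC3 and KIF21B had the lowest log2 fold changes of this group. KIFC3, a motor that walks toward microtubule minus ends and acts at cell junctions, had 26.1, 35.9 and 28.4 CPM at HH17-18, against 38.6, 36.3 and 40.8 CPM at HH13-14. For KIFC3 this gave a log2 fold change of -0.36 (SE 0.13, 95% interval -0.65 to -0.06, edgeR adjusted p = 0.151), and of 18 alternatives only limma voom with sample weights put it past the threshold, at an adjusted p of 0.0474. KIF21B, a motor of neurons, lymphocytes and other cells in mammals, had 110, 90.4 and 115 CPM at HH17-18, against 130, 131 and 129 CPM at HH13-14. Its log2 fold change was -0.31 (SE 0.12, 95% interval -0.58 to -0.04, edgeR adjusted p = 0.167), so KIF21A and KIF21B, close relatives, had estimates of opposite sign, and the difference between them was not tested.

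**Figure D4:**
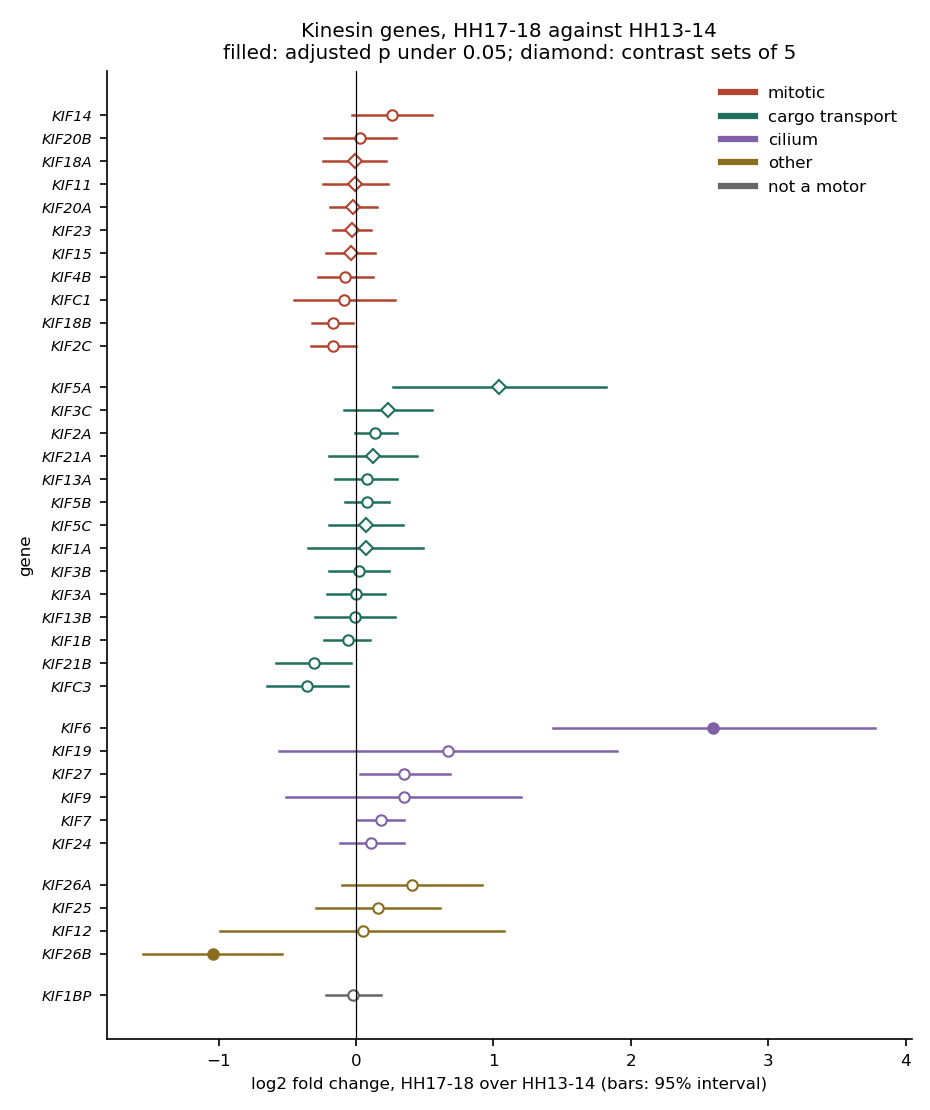
Log2 fold change between HH17-18 and HH13-14 of the 36 kinesin genes tested, with 95% intervals, grouped by role. Filled symbols mark an edgeR adjusted p under 0.05 (KIF6 and KIF26B), diamonds mark the 5 mitotic and 5 axonal kinesins, and the 9 intervals that exclude 0 belong to the kinesins at an unadjusted p under 0.05.

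Of 18 genes written in the list of cargo adaptors and light chains, 14 were in the table and tested. KLC1 was the only light chain among them. The list gave 1 call by edgeR, or 7.14% against 4.51% of all genes. The gene called was KLC1 (ENSGALG00010015964), the kinesin-1 light chain of neurons, on chromosome 5 at 49917775 to 49979793. KLC1 had 42.2, 48.6 and 49.6 CPM at HH13-14, 57.1, 53.0 and 63.1 CPM at HH15-16 and 66.6, 68.5 and 106 CPM at HH17-18. The pools of the 3 stages did not overlap. KLC1 rose at HH17-18 relative to HH13-14 by a log2 fold change of 0.78 (SE 0.16, 95% interval 0.41 to 1.14, edgeR adjusted p = 0.0303). Replicate 3 of HH17-18 was again the highest pool, and without it the log2 fold change was 0.52 (edgeR adjusted p = 0.0567), while the fits without a pool of HH13-14 gave adjusted p-values of 0.0983 to 0.131. That pool also had the highest neuron and macrophage sums, 1627 and 66.9 CPM, whose part in the KLC1 result was not tested.

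Among the other adaptors, FEZ1, which links kinesin-1 to vesicle cargo, had 47.2, 48.6 and 47.5 CPM at HH17-18, against 37.9, 34.3 and 38.0 CPM at HH13-14. It lay at the threshold, with a log2 fold change of 0.38 and an edgeR adjusted p of 0.05 that was not under it, and DESeq2 and limma voom both called it. MAPK8IP3, a scaffold of the motor, was at 0.18 (edgeR adjusted p = 0.292). The median of the 14 genes was -0.03. KIF1BP, the inhibitor that the naming rule picks up, had 46.9, 41.7 and 49.1 CPM at HH17-18, against 42.9, 46.9 and 49.7 CPM at HH13-14, a log2 fold change of -0.02 (95% interval -0.22 to 0.18, edgeR adjusted p = 0.924).

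Several genes for the tracks and filaments of the axon rose. Of 17 genes tested for neuronal tubulin, microtubule-associated proteins and neurofilaments, 5 rose and 0 fell, a share of 29.4% against 2.4% of all genes that rose, with a median log2 fold change of 0.48. This list also holds GAP43, which is none of these, and it shares DCX, STMN2 and TUBB3 with the neuron markers. Stathmins STMN4 and STMN2, which bind tubulin, rose by 1.85 and 1.83 (edgeR adjusted p = 0.033 and 0.0244). The neurofilament genes NEFM and NEFL rose by 1.22 and 0.89 (edgeR adjusted p = 0.0354 and 0.0487), and DCX, a microtubule binder of young neurons, by 0.72 (edgeR adjusted p = 0.0211). STMN2 had 31.0, 30.3 and 73.3 CPM at HH17-18, against 12.6, 13.5 and 11.8 CPM at HH13-14, with its highest value in the same pool as KIF5A and KLC1. These calls were not stable to the choice of pools: of 18 alternatives, 6 lost the call for NEFL, 5 that for STMN4 and 4 each those for STMN2, NEFM and DCX. Without replicate 3 of HH17-18 the log2 fold changes were 1.43 for STMN4, 1.27 for STMN2, 0.83 for NEFM, 0.53 for NEFL and 0.62 for DCX, with edgeR adjusted p-values of 0.0543 to 0.104. Other settings weakened some calls more. Over the 18 alternatives the highest edgeR adjusted p was 0.128 for STMN4, 0.102 for STMN2, 0.133 for NEFM, 0.157 for NEFL and 0.0904 for DCX. TUBB3, the neuronal tubulin, was at 0.14 (95% interval -0.17 to 0.45, edgeR adjusted p = 0.608).

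The gene that fell was KIF26B (ENSGALG00010006958), on chromosome 3 at 34003714 to 34297816. It encodes an unconventional kinesin that, in mouse, acts in cell adhesion and polarity of kidney mesenchyme and downstream of noncanonical WNT signalling. KIF26B had 8.69, 13.5 and 11.5 CPM at HH13-14, 6.46, 10.2 and 9.72 CPM at HH15-16 and 5.88, 5.94 and 4.50 CPM at HH17-18. All pools of HH17-18 were below all pools of the earlier stages, and HH15-16 overlapped HH13-14. The means were 5.44 ± 0.818 CPM at HH17-18 and 11.2 ± 2.41 CPM at HH13-14 (SD, n = 3 each). KIF26B fell by 1.04 on the log2 scale (SE 0.23, 95% interval -1.55 to -0.54, edgeR adjusted p = 0.0334).

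This call rested on all 6 pools. The log2 fold change was -1.199 to -0.890 when any pool of either stage was left out, but the edgeR adjusted p was then 0.0563 to 0.129. It stayed under 0.05 with the DESeq2 test (0.000176) and with limma voom (0.0178). The summed level of the neural crest and glia markers was 429 to 599 CPM at HH17-18 and 584 to 712 CPM at HH13-14, and their part in the result was not tested.

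KIF26A, its close relative, which in mouse restrains signalling through the GDNF receptor in enteric neurons, had 142, 167 and 131 CPM at HH13-14, 89.2, 149 and 154 CPM at HH15-16 and 140, 252 and 194 CPM at HH17-18. The log2 fold change between HH17-18 and HH13-14 was 0.41 (SE 0.23, 95% interval -0.10 to 0.92, edgeR adjusted p = 0.334). Its lowest and highest pools, replicate 1 of HH15-16 and replicate 2 of HH17-18, had the lowest and highest sums of head mesenchyme markers, 1317 and 3331 CPM, whose part was not tested. KIF25 and KIF12, the remaining kinesins tested outside the main roles, were at 0.16 and 0.05, KIF12 at a level of 0.134 to 0.528 CPM.

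The kinesins of the cilium all had positive estimates, with 1 call by edgeR among 6, where 2.4% of all genes were called higher. KIF6 (ENSGALG00010020128), on chromosome 3 at 28628514 to 28771073, is a kinesin-9 motor that in mouse is needed by ciliated cells lining the brain ventricles. Its level was close to the lower limit of the data. The counts themselves were 2, 4 and 4 at HH13-14, 5, 7 and 3 at HH15-16 and 16, 24 and 24 at HH17-18, or 0.0304 to 0.0748, 0.0488 to 0.101 and 0.245 to 0.439 CPM. The pools of HH17-18 did not overlap those of either earlier stage. The filter on low counts was passed only through these pools, where KIF6 was high, so its test was not independent of that filter. With no filter KIF6 was also called higher. KIF6 rose at HH17-18 relative to HH13-14 by a log2 fold change of 2.60 (SE 0.53, 95% interval 1.43 to 3.78, edgeR adjusted p = 0.0275). From the summed counts, 64 at HH17-18 and 10 at HH13-14, the ratio per total count was 6.52 (exact 95% interval 3.33 to 14.3, counting error only).

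KIF6 was also the single kinesin with an effect of stage over all 3 stages by edgeR (adjusted p = 0.0488), or 2.78% of those tested, where 1.3% of all genes were past the threshold. DESeq2 called KIF26B and KIF5A there too, which was not set against the share of all genes that its test called. For KIF6 this call was lost with the replicate block and in 8 of 9 fits with 1 pool removed. KIF6 did not pass the filter of at least 10 counts in every pool, nor the filter on low counts when either lane was used alone. It missed the threshold between HH17-18 and HH13-14 in 5 of 9 fits with 1 pool removed, with an edgeR adjusted p of 0.0874 to 0.125 in those 5. The macrophage sum, 23.5 to 66.9 CPM at HH17-18 and 5.72 to 9.48 CPM at HH13-14, and the red blood cell sum, 503 to 719 CPM at HH17-18 and 283 to 400 CPM at HH13-14, likewise did not overlap, and their part in the KIF6 result was not tested.

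The other cilium kinesins were not past the threshold. KIF7, which sets the tip of the primary cilium and acts in hedgehog signalling, had 53.3, 56.9 and 54.6 CPM at HH17-18, against 51.2, 48.8 and 45.5 CPM at HH13-14. The groups did not overlap, with a log2 fold change of 0.18 (95% interval 0.01 to 0.35, edgeR adjusted p = 0.218). KIF27, its relative, had 22.8, 30.2 and 23.1 CPM at HH17-18, against 19.5, 19.8 and 20.2 CPM at HH13-14, a log2 fold change of 0.35 (95% interval 0.03 to 0.68, edgeR adjusted p = 0.191). KIF19, which trims motile cilia in mouse, and KIF9, a motor of motile cilia, had log2 fold changes of 0.67 and 0.35, with large standard errors of 0.56 and 0.39, and edgeR adjusted p-values of 0.532 and 0.653. KIF9 had its highest value, 7.66 CPM, in replicate 2 of HH15-16, where the other pools held 2.07 to 4.12 CPM. KIF24, which holds back cilium assembly, was at 0.11 (edgeR adjusted p = 0.582).

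**Figure D5:**
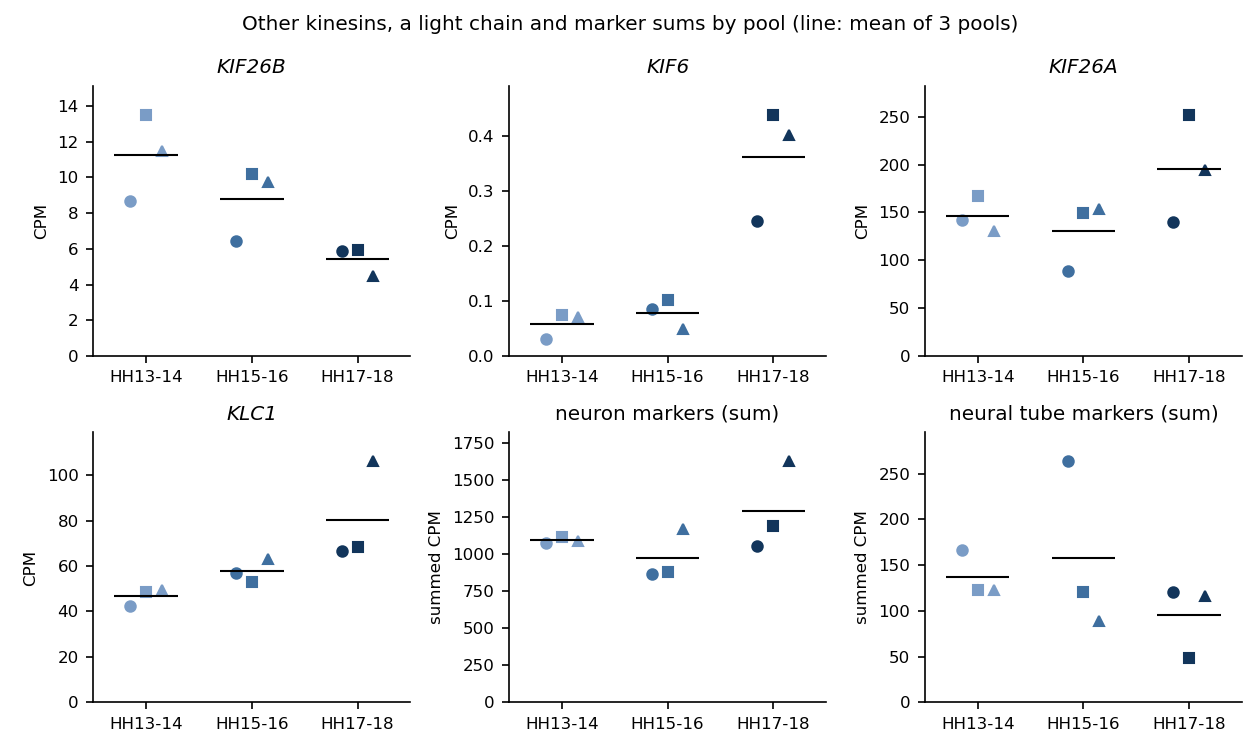
CPM of KIF26B, KIF6, KIF26A and the light chain KLC1, and the summed CPM of the neuron and neural tube marker lists, in the 3 pools of each stage (circle, square and triangle are replicates 1, 2 and 3) with a line at the stage mean and each axis starting at 0. KIF26B is lowest at HH17-18, KIF6 is above 0.2 CPM at HH17-18 alone, and replicate 3 of HH17-18 is highest for both KLC1 and the neuron sum.

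The separate stage steps gave no kinesin past the threshold by edgeR. For HH15-16 against HH13-14 there were 0 of 36, with 0.0% of all genes called, and 1 kinesin at an unadjusted p under 0.05, where 10.1% of all genes were. For HH17-18 against HH15-16 there were also 0, with 0.079% of all genes called (0.0169% higher and 0.0621% lower), and 6 kinesins, or 16.7%, at an unadjusted p under 0.05, where 9.32% of all genes were. DESeq2 likewise called 0 kinesins in either step. The log2 fold changes of KIF5A were 1.01 for the later step and 0.03 for the earlier one, those of KIF6 were 2.17 and 0.44, and those of KIF26B were -0.69 and -0.35. Tested directly, later minus earlier step differed for 0 kinesins by edgeR, 0 by DESeq2 and 0 at an unadjusted p under 0.05, where 0.00564% of all genes were past the adjusted and 4.36% past the unadjusted threshold. For no kinesin was the change thus placed in 1 step beyond the spread between pools.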

How the data were processed

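The authors deposited whole-number counts per gene for 18 libraries. Trim Galore, HISAT2, featureCounts and the build GRCg7b are named in the submitters' processing notes, with versions and strand setting not given in the sources used here. All columns matched a sample by name (0 unused). Technical replicates were summed to 9 pools, 3 per stage. The labels call the pools of a stage biological replicates without saying how they were collected, so p-values measure the spread between these pools. Libraries held 26505315 to 34424153 counts.

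Genes were filtered by filterByExpr (17724 kept), scaled by TMM and fitted in one quasi-likelihood model of all pools in edgeR 4.0.16 (R 4.3.3), with Benjamini-Hochberg adjustment over all genes tested and a threshold of 0.05, two-sided. Intervals are 95% intervals implied by the test. Log2 CPM used a prior count of 2. DESeq2 1.42.0 and limma 3.58.1 voom were alternatives. The procedure was tested on simulated counts. Gene coordinates are RefSeq's on GRCg7b, matched by symbol for 35 of 37 rows.

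Named were the 10 contrast genes, kinesins past the threshold, the 3 largest changes each way among the rest, kinesins that failed the filter, and list members past the threshold or among the 3 largest changes. The other kinesins, CENPE and TUBB3 were named after their values were seen. Members and lists were chosen with earlier results of these data known. Pools were not treated as paired. Correlations of their deviations ran from -0.0633 to 0.303 over 9 same-numbered pairs and from -0.399 to 0.322 over 18 others. The means were 0.0658 and -0.0332. A replicate block lowered the biological coefficient of variation from 20.2% to 18.4%. This check cannot exclude that same-numbered pools shared a batch.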

Additional observations from a re-analysis of the deposited data

How the results depend on the processing

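Counts of kinesins for both single steps and for the difference between steps stayed at 0 in every alternative. Between HH17-18 and HH13-14, the 1 kinesin higher became 2 with the DESeq2 test and with voom, 0 with at least 10 counts in every pool and on lane 7 or lane 8 alone, and 0 to 1 without 1 replicate. The 1 lower became 2 with voom and 0 to 1 without 1 replicate. The 1 with a stage effect became 3 with the DESeq2 test, 2 with no filter and with voom, 0 with at least 10 counts, on either lane alone and with the replicate block, and 0 to 2 without 1 replicate. The cause was not tested, except that KIF6 failed the filter in the settings with fewer counts. The numbers of kinesins called were not set against the share of all genes called in each alternative. With the replicate block the interval gave 1 kinesin higher and 1 lower. Of 627 recomputed gene values 563 kept direction and side, 38 lost the call, 11 gained it and 15 changed sign, none of these called. Reversed were KIF11 at 0.003 with at least 10 counts, 0.036 on lane 7 and 0.003 with voom, KIF18A at 0.001 with at least 10 counts and 0.004 with voom, and KIF20A at 0.017 on lane 7. Without 1 replicate the ranges were -0.06 to 0.073 for KIF11, -0.063 to 0.001 for KIF20A, -0.07 to 0.032 for KIF18A, -0.144 to 0.001 for KIF15, -0.032 to 0.168 for KIF5C and -0.07 to 0.275 for KIF1A. Low counts limit the precision for KIF6 and KIF12. KIF2B had 0 counts in every pool, as did the dynactin gene DCTN1, and the cause was not tested.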

Other observations

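Dynein is the motor that walks the opposite way. Of 23 cytoplasmic dynein and dynactin genes tested, 0 were past the threshold by edgeR or DESeq2 between HH17-18 and HH13-14. By edgeR 4.51% of all genes were called. Of the 23, 0 had an unadjusted p under 0.05, where 21.6% of all genes did. Their median log2 fold change was 0.02, and the largest estimates were those of DYNLT3, BICD1 and DYNC1LI2, at 0.33, 0.25 and 0.20. Of the 24 genes found in the table, DCTN1 had 0 counts in every pool. The summed level was 2474 to 2693 CPM at HH17-18 and 2523 to 2648 CPM at HH13-14.

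Among 20 genes of intraflagellar transport, the traffic that kinesin-2 drives in the cilium, 0 were past the threshold by edgeR. Of the 20 genes, 3 had an unadjusted p under 0.05, where 21.6% of all genes did. Whether these shares differ was not tested. The median log2 fold change of the 20 genes was 0.07. Those with the largest estimates were IFT81 at 0.44 (95% interval 0.09 to 0.79, edgeR adjusted p = 0.137), DYNC2H1, the heavy chain of the returning dynein, at 0.41 (95% interval 0.15 to 0.66, edgeR adjusted p = 0.0746) and DYNC2LI1, its light intermediate chain, at 0.40 (95% interval 0.10 to 0.69, edgeR adjusted p = 0.117). For these 3 genes all pools of HH17-18 lay above all pools of HH13-14. This was so for 4 of the 20 genes, where 16.0% of all genes did so. For 1 of the 20 they lay below, where 15.4% of all genes did so. DYNC2H1 passed the threshold with DESeq2 (adjusted p = 0.02) and limma voom (adjusted p = 0.036), and its edgeR adjusted p was 0.0598 to 0.251 in the other alternatives.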
